A study of Mus musculus with 24 samples.

Results

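The genes described here encode the enzymes and pumps with which cells change and export foreign compounds and their own waste lipids and steroids. They were chosen by symbol alone, as the cytochrome P450 genes of families Cyp1 to Cyp3, the cytosolic and related glutathione S-transferases (Gst, classes alpha, kappa, mu, omega, pi, theta and zeta), the UDP-glucuronosyltransferases Ugt1 and Ugt2, the sulfotransferases (Sult) and the ABC transporters of subfamily C (Abcc). Such a symbol was found for 96 of the 18368 genes measured, namely 38 Cyp, 22 Gst, 13 Ugt, 13 Sult and 10 Abcc genes. RNA was measured in 24 libraries from 12 CD1 mice, an outbred stock, 4 mice for each of abdomen, back and cheek. Per the labels the mice were 7 weeks old and timed to the resting phase of the hair cycle (telogen) when they were shaved and given 2 mm full-thickness punch wounds at a single site, 2 wounds on abdomen or back and 1 on the cheek. After 3 days the wound and unwounded skin beside it were collected from each mouse, so the 6 groups of 4 libraries were unwounded abdomen, back and cheek skin and wounds of the same 3 sites. Every unwounded library thus came from a mouse that carried a wound, the labels name no genetic change or drug, and they do not say whether the 2 wounds of a mouse were pooled.

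The handling of such compounds is usually divided into phases. In phase I, cytochrome P450 enzymes oxidise a compound. In phase II, transferases attach glutathione, glucuronic acid or sulfate to it, and in phase III ABCC pumps carry the conjugate out of the cell. The liver is the best known site of these reactions, but skin also expresses many of the enzymes, and several of them act on the fatty acids, sterols and hormones of the skin itself. The aryl hydrocarbon receptor (AHR), the inducer of Cyp1 genes, binds DNA at a core of GCGTG, and NRF2, the regulator of many glutathione S-transferases, binds at TGACNNNGC.

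The 250 bases before the transcription start are shown for genes on which the results below turn, from RefSeq sequences of the mouse build GRCm38.p6, with every match to GCGTG or TGACNNNGC on either strand in capitals. Cyp1a1 and Cyp2j12 are shown because both differed between cheek and back skin, and Cyp1b1 as the other Cyp1 gene measured. Gsto1 is shown because it rose in wounds of every site, and Gsta3 as a gene that was lower in wounds.
Cyp1a1 (chr9:57697363-57697612, plus strand): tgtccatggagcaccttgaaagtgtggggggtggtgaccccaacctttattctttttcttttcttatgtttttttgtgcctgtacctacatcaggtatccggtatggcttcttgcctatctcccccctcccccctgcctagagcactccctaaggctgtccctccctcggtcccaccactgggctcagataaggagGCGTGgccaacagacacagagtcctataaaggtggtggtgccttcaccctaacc
Cyp2j12 (chr4:96141153-96141402, minus strand): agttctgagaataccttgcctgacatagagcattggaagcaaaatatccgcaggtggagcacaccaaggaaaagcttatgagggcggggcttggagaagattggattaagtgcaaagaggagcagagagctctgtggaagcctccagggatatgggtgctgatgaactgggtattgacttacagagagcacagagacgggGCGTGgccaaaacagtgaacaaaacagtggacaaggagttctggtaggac
Cyp1b1 (chr17:79715062-79715311, minus strand): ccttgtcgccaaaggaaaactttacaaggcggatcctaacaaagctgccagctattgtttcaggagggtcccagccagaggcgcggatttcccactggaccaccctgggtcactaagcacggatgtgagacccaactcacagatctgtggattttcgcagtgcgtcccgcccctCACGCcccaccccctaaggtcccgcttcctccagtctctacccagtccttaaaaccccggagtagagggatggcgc
Gsto1 (chr19:47854723-47854972, plus strand): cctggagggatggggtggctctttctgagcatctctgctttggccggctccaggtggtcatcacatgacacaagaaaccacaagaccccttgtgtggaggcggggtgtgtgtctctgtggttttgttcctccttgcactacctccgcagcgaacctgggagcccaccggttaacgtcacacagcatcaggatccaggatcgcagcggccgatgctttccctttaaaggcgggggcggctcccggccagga
Gsta3 (chr1:21240335-21240584, plus strand): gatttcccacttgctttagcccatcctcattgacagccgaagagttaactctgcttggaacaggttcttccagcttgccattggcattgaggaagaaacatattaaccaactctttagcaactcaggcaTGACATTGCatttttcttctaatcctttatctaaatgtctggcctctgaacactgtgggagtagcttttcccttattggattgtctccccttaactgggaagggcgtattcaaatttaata
The capitals mark GCGTG starting 54 bases before the start in Cyp1a1 and 50 bases before it in Cyp2j12, the reverse complement of GCGTG starting 76 bases before it in Cyp1b1, and TGACNNNGC starting 121 bases before it in Gsta3. The Cyp1a1 window lies within the span of the gene (chr9:57687928-57703824). Neither word was found in the Gsto1 window. Of the 61 windows of members that could be tested for wounding, 15 (24.6%) held GCGTG and 6 (9.84%) held TGACNNNGC, against 28.2% and 10.2% of all 32851 promoter windows. Windows were matched for 84 of the 96 genes, and Abcc3, Cyp2g1 and Gsta4 were not among them. A match is a run of letters and not a known binding site.

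The libraries were comparable in the total of their values, with summed FPKM (fragments divided by transcript length and by how many were mapped in the library) of 490830 to 608888. FPKM carries no fragment counts, so the depth behind a value is unknown. The 6 liver markers summed to 0.68 to 4.86 FPKM per library, so liver RNA was near 0. The 4 unwounded and 4 wound libraries of each site differed in the levels of cell type markers. In wounds against unwounded skin of the 12 mice, adjusted over all genes at 0.001, all 6 adipocyte markers fell, all 6 neutrophil markers and 5 of 6 macrophage and 5 of 6 proliferation markers rose, and 4 of 6 endothelial markers rose. The other lists moved in part, with 2 higher and 2 lower of 6 for basal keratinocytes, 1 higher of 5 for suprabasal keratinocytes, 1 lower of 8 for sebaceous gland, 1 lower of 6 for hair follicle, 2 lower of 6 for fibroblasts, 3 higher and 2 lower of 6 for mural cells, 1 lower of 6 for mast cells, 0 of 7 for skeletal muscle (6 at an unadjusted p under 0.05 in limma), 1 lower of the 1 tested salivary or lacrimal marker, 0 of 2 for liver (2 at an unadjusted p under 0.05) and 0 of 4 for male-linked genes (3 at an unadjusted p under 0.05). The summed adipocyte markers were 1027 to 1818 FPKM in unwounded abdomen and 285.5 to 539 in its wounds, 1021 to 1845 and 303.1 to 448.9 in back, and 441.4 to 1563 and 273.1 to 791.3 in cheek. The summed skeletal muscle markers, though none was called, were 10990 to 17530 FPKM in unwounded back and 2363 to 3509 in its wounds. In cheek they were 8578 to 16800 and 3834 to 5150, and in abdomen 374.9 to 11400 and 1267 to 4018. In bulk tissue, fewer cells of a type cannot be told apart from less RNA per cell. The part of these cell types in the results below was not tested. Single libraries stood apart in tissue content. Unwounded cheek of mouse 4 had high levels of hair follicle keratins despite the labelled resting phase, with Krt25 at 1133 FPKM against at most 20.99 in the other 11 unwounded libraries, and unwounded abdomen of mouse 2 had skeletal muscle markers summing to 374.9 FPKM against up to 11400 in the same group.

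Skin expressed members of every phase, but few genes carried most of the RNA. A gene was tested for wounding when it reached 0.5 FPKM in at least 4 of the 24 libraries, which 57 of the 96 did. By family these were both Cyp1 genes, 17 of 32 Cyp2, all 4 Cyp3, 20 of 22 Gst, 4 of 13 Ugt, 4 of 13 Sult and 6 of 10 Abcc genes. The remaining 39 never exceeded 0.50 FPKM. Among them were all 3 Cyp2a genes (at most 0.32 FPKM), all 4 Cyp2c genes (at most 0.42), the 1 Ugt2a and 4 Ugt2b genes (at most 0.09) and Abcc6 (at most 0.08), the gene mutated in pseudoxanthoma elasticum.

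Over the 12 unwounded libraries Cyp2e1, which oxidises ethanol and other small molecules, averaged 165 FPKM and made 35.5% of the summed Cyp FPKM, and Cyp2f2, known for naphthalene oxidation, averaged 102.8 FPKM (22.1%). Among the transferases Gstp1, the pi class enzyme, was highest of all members at 412.3 FPKM (39.3% of the Gst sum), followed by Gstm1 at 171.1 FPKM (16.3%). Ugt1a1, the bilirubin-conjugating enzyme, made 49.3% of the Ugt sum at 39.92 FPKM. Sult2b1, the cholesterol sulfotransferase of the epidermis, made 58.8% of the Sult sum at 57.56 FPKM, and Abcc1 (MRP1), a pump for glutathione conjugates and leukotriene C4, 35.4% of the Abcc sum at 19.72 FPKM. These shares compare values per transcript length and are descriptive.

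The family sums in wounds and unwounded skin were not tested and are given as a description. The Cyp sum was 555.6 ± 102, 456.7 ± 110 and 382.9 ± 75.2 FPKM (SD, n = 4) in unwounded abdomen, back and cheek and 327.3 ± 49.4, 258.8 ± 39.8 and 247.6 ± 40.9 FPKM in the wounds. The Gstm sum was 336.8 ± 35.7, 366.1 ± 29.4 and 395.2 ± 40.1 FPKM in unwounded skin and 240.5 ± 53.8, 254.1 ± 21.3 and 246 ± 43.7 FPKM in wounds. The Gsta sum was higher in wounds of back (46.42 ± 3.7 unwounded, 80.26 ± 19.6 FPKM in wounds) and cheek (39.85 ± 5.65 unwounded, 83.37 ± 27.4 FPKM in wounds), while in abdomen it was 66.02 ± 10.1 and 68.8 ± 29 FPKM.

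**Figure D1:**
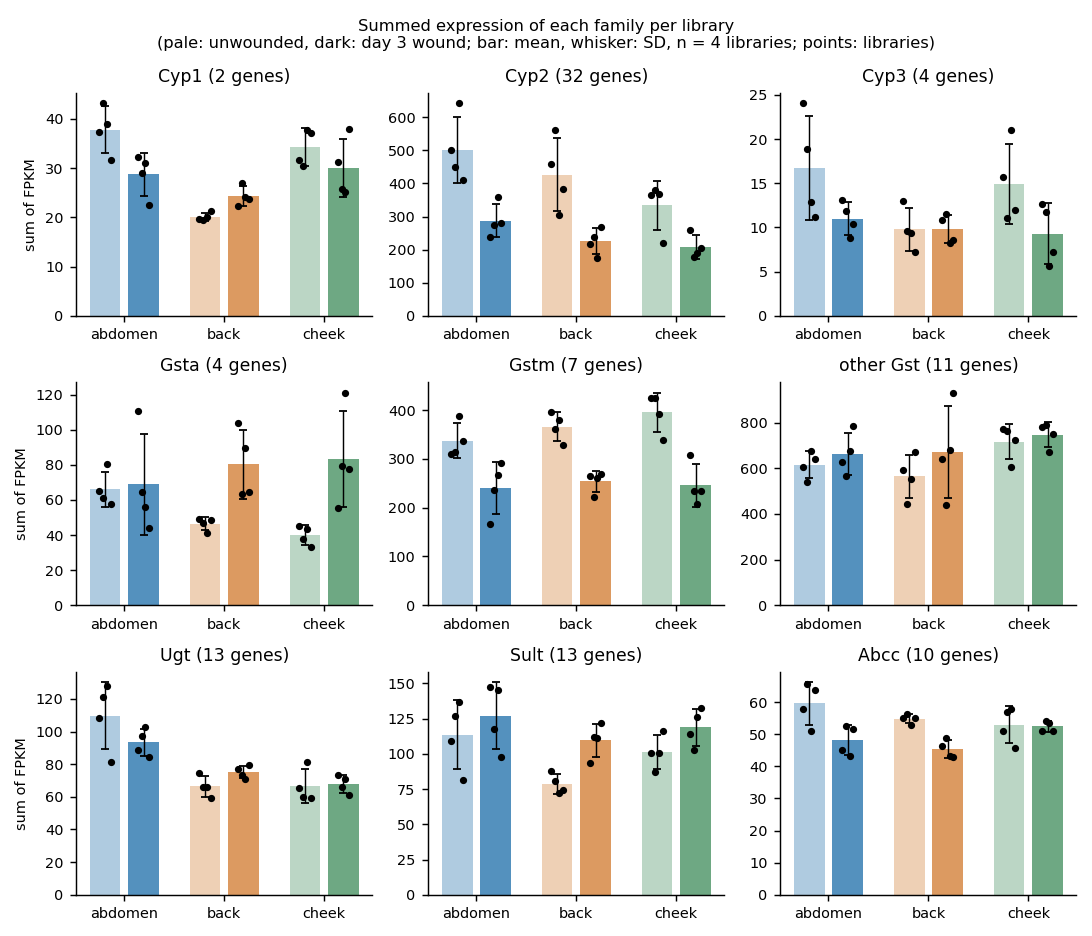
Summed FPKM of all members of each family (vertical axes) in unwounded skin (pale bars) and day 3 wounds (dark bars) of abdomen, back and cheek. Bars give the mean, whiskers the SD and points the 4 libraries. The Cyp2 and Gstm sums are lower in wounds at each site, and in back and cheek every Gsta point of a wound lies above every point of unwounded skin.

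To ask which members responded to wounding, each wound was compared with unwounded skin of the same mouse in 1 limma model over the 24 libraries, on log2(FPKM + 0.5), with p-values adjusted by the Benjamini-Hochberg method over 14423 genes and a threshold of 0.001. In abdomen 3 of the 57 members were called (5.26%, 1 higher and 2 lower), where 4.96% of all tested genes were (3.92% higher and 1.04% lower). In cheek 5 were called (8.77%, 3 higher and 2 lower) against 8.69% of all genes (6.5% higher and 2.19% lower). In back 14 were called (24.6%, 7 higher and 7 lower) against 14.4% (10% higher and 4.37% lower). Averaged over the 3 sites, 28 members passed (49.1%) where 33.4% of all genes did. Of these, 9 members were higher (15.8%, against 19.1% of all genes) and 19 lower (33.3%, against 14.4%). At a threshold of 0.05 instead, 30 members passed in abdomen, 30 in back, 30 in cheek (52.6% each) and 47 on the average (82.5%), where 32.9%, 45.9%, 36.6% and 62.7% of all genes did. The median log2 difference of the 57 was -0.40, -0.17 and -0.35 at abdomen, back and cheek, and that of all tested genes -0.01, 0.07 and 0.01. Of the 57, 31 were lower at all 3 sites, 13 higher at all 3 and 13 mixed in sign. Signs were not counted over all genes, so these counts cannot be read as particular to the members.

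The counts at single sites moved with single mice. Without abdomen mouse 1, 2 or 3 only 1 member was called in abdomen, and 5 or 6 were without back mouse 4 or cheek mouse 4. The back count was 9 without abdomen mouse 3, and 6, 3, 4 and 5 without back mouse 1, 2, 3 and 4. The cheek count was 8 without abdomen mouse 1, 2 without cheek mouse 2 and 3 without cheek mouse 3. The average over sites was steadier, with 28 to 31 members called. Gsto1 at each site, Abcc3 in back and cheek and Abcc9 in back kept their call whichever of the 12 mice was left out, as did all 23 named members called on the average. Of the 28 called on the average, 20 changed in the same direction in all 12 mice. The paired test that called them favours such agreement, so it is a description and no separate support.

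**Figure D2:**
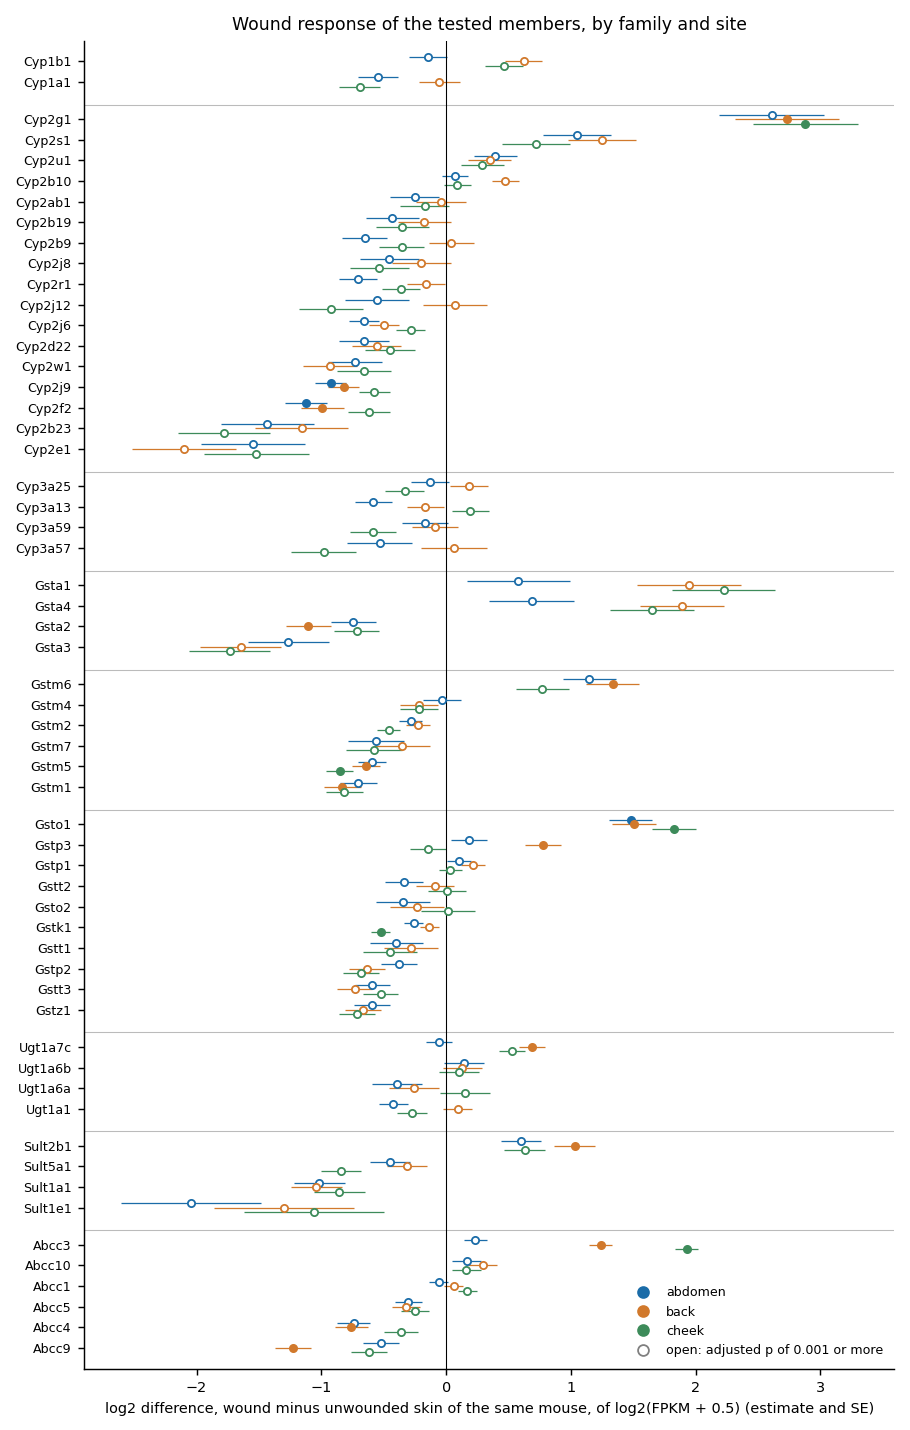
Log2 difference between wound and unwounded skin of the same mouse (horizontal axis, estimate and SE of log2(FPKM + 0.5)) for the 57 tested members, grouped by family, in abdomen (blue), back (orange) and cheek (green), with filled points where the adjusted p was under 0.001. Cyp2g1 lies farthest to the right, Gsto1 is filled at all 3 sites, and the 3 Abcc3 points are spread from 0.24 to 1.93.

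Among phase I genes the most abundant pair, Cyp2e1 and Cyp2f2, fell in wounds on the average over sites and Cyp2g1 rose. Of the 23 tested Cyp genes 8 were called on the average, 2 higher and 6 lower and all of them Cyp2 genes, where 33.4% of all genes were called (19.1% higher and 14.4% lower), so that the total was near the background. Cyp2b10, the next in abundance, averaged 57.6, 33.6 and 35.6 FPKM in unwounded abdomen, back and cheek and 60.4, 47.00 and 37.4 FPKM in wounds. Its log2 differences were 0.07 ± 0.11, 0.47 ± 0.11 (adjusted p = 0.00329) and 0.09 ± 0.11, and 0.21 ± 0.06 (adjusted p = 0.00932) on the average, none past the threshold. Cyp2g1, a P450 best known from olfactory mucosa, was low and variable in unwounded skin. Its values were 7.32, 0.06, 1.94 and 0.03 FPKM in unwounded abdomen of mice 1 to 4 and 27.3, 3.42, 12.5 and 5.02 FPKM in their wounds. In back they were 1.67, 1.57, 1.05 and 1.41 FPKM in unwounded skin and 6.03, 23.1, 5.62 and 27.1 FPKM in wounds, and in cheek 0.20, 1.16, 7.19 and 0.56 FPKM in unwounded skin and 5.54, 27.8, 36.5 and 3.89 FPKM in wounds. All 12 mice had more Cyp2g1 in the wound than beside it, and only in back did the libraries of the states not overlap. The log2 differences were 2.61 ± 0.42 (adjusted p = 0.00118), which missed the threshold, 2.73 ± 0.42 (adjusted p = 0.000406) and 2.88 ± 0.42 (adjusted p = 0.000422) in abdomen, back and cheek, and 2.74 ± 0.24 (adjusted p = 2.85e-06) on the average. Without the mouse term its adjusted p in back was 0.0244 and in cheek 0.0236.

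Among the members called on the average over sites, Cyp2e1 fell most. Its libraries read 100.4, 115, 139 and 123 FPKM in unwounded abdomen and 19.5, 45.1, 46.1 and 63.7 FPKM in the wounds. Unwounded back read 263, 323, 128 and 176 FPKM and back wounds 59.5, 44.7, 28.5 and 72.4 FPKM, and unwounded cheek 188, 225, 139.9 and 60.97 FPKM and cheek wounds 105, 26.8, 32.99 and 55.5 FPKM. The wounds of abdomen and back lay below all unwounded libraries of their site, while in cheek unwounded mouse 4, the library with high hair keratins, lay among the wounds. The average log2 difference was -1.72 ± 0.24 (adjusted p = 0.000113), with no call at a single site. The part of adipocytes, whose markers all fell, in the fall of Cyp2e1 was not tested.

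Cyp2f2 fell in abdomen, where it read 177, 124, 236 and 125 FPKM in unwounded skin and 55.3, 71.7, 104 and 68.5 FPKM in wounds, with a log2 difference of -1.12 ± 0.17 (adjusted p = 0.000522), and in back (-0.99 ± 0.17, adjusted p = 0.000581). In cheek it was 60.3, 39.6, 54.01 and 45.00 FPKM in unwounded skin and 44.7, 18.6, 28.5 and 42.98 FPKM in wounds, a log2 difference of -0.62 ± 0.17 (adjusted p = 0.0135) that missed the threshold. Cyp2j9, of a subfamily that makes epoxides from fatty acids, was lower in all 12 wounds (3.02 to 5.96 FPKM) than in all 12 unwounded libraries (5.98 to 10.5 FPKM), and fell by 0.77 on the log2 scale on the average (adjusted p = 1.59e-06). Cyp2b23 also fell in all 12 mice, with an average log2 difference of -1.46 ± 0.21 (adjusted p = 0.000142). Cyp2g1, Cyp2b23 and Cyp2f2 belong to a cluster of 12 members on chromosome 7 (chr7:25802469-27158564), of which 7 were tested, 2 rose and 2 fell on the average. Cyp2j9 belongs to a cluster of 7 on chromosome 4 (chr4:96042660-96664171), of which 4 were tested and 2 fell. Over all genes 19.1% rose and 14.4% fell.

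The 2 Cyp1 and 4 Cyp3 genes gave 0 calls in limma at any site or on the average, with 2 of the 2 and 3 of the 4 at an unadjusted p under 0.05 on the average. Cyp1a1 and Cyp1b1 oxidise polycyclic aromatic compounds and are induced through AHR. Cyp1a1 averaged 26.2, 11.9 and 22.9 FPKM in unwounded abdomen, back and cheek and 17.9, 11.4 and 14.02 FPKM in wounds, with an average log2 difference of -0.43 ± 0.09 (adjusted p = 0.00152). Cyp1b1 averaged 11.6, 8.19 and 11.4 FPKM in unwounded skin and 10.8, 12.9 and 16.00 FPKM in wounds, with 0.31 ± 0.09 (adjusted p = 0.00708). The estimates of the pair thus had opposite signs, without either passing. Of the Cyp3a genes, which oxidise many drugs and steroids, Cyp3a57 was highest (5.27 to 18.1 FPKM in unwounded skin), with an average log2 difference of -0.48 ± 0.15 (adjusted p = 0.015). Cyp3a13 and Cyp3a59 gave -0.19 ± 0.09 and -0.28 ± 0.11.

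Glutathione S-transferases split within their classes. Of 20 tested genes 4 rose and 9 fell on the average over sites, where 19.1% of all genes rose and 14.4% fell. Gsto1, the omega class enzyme that reduces rather than conjugates many of its substrates, was the only member called at all 3 sites. Its values were 32.1, 36.4, 46.2 and 28.96 FPKM in unwounded abdomen and 145, 91.6, 95.02 and 77.7 FPKM in wounds. Unwounded back read 45.2, 35.2, 35.3 and 35.5 FPKM and back wounds 113, 108, 106 and 104 FPKM, and unwounded cheek 29.6, 24.01, 33.6 and 32.8 FPKM and cheek wounds 74.4, 116, 157 and 96.7 FPKM. Every wound library lay above every unwounded library. The means rose 2.85-fold, 2.85-fold and 3.7-fold, with log2 differences of 1.48 ± 0.17 (adjusted p = 9.89e-05), 1.51 ± 0.17 (adjusted p = 3.57e-05) and 1.83 ± 0.17 (adjusted p = 1.06e-05).

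In the alpha class, 2 of the 4 genes rose and 2 fell on the average, where 19.1% of all genes rose and 14.4% fell. Gsta4, which conjugates the lipid peroxidation product 4-hydroxynonenal, read 18.7, 15.6, 21.3 and 16.1 FPKM in unwounded abdomen and 74.3, 32.2, 24.7 and 11.6 FPKM in the wounds of the same mice, so that abdomen mouse 4 was lower in the wound. Unwounded back read 13.7, 12.4, 12.98 and 12.7 FPKM and back wounds 63.2, 39.7, 62.01 and 37.7 FPKM, and unwounded cheek 14.6, 18.7, 15.3 and 14.2 FPKM and cheek wounds 29.2, 48.6, 87.2 and 50.4 FPKM, without overlap at either site. Its average log2 difference was 1.41 ± 0.19 (adjusted p = 9.17e-05). Gsta1 read 4.87, 3.55, 3.94 and 4.51 FPKM in unwounded back and 27.7, 14.5, 16.7 and 14.2 FPKM in back wounds, and 5.45, 3.21, 4.43 and 2.37 FPKM in unwounded cheek and 11.5, 23.8, 27.8 and 17.7 FPKM in cheek wounds. Its wound value was higher in 2 of 4 mice in abdomen and in all 8 others, and its average log2 difference was 1.58 ± 0.24 (adjusted p = 0.000179). A difference between sites in the response of Gsta1 or Gsta4 was not called by the moderated F test described below.

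Gsta2, the neighbour of Gsta1 on chromosome 9, and Gsta3 on chromosome 1 went down. Gsta2 read 20.6, 15.03, 15.5 and 23.2 FPKM in unwounded back and 9.06, 7.10, 7.04 and 10.1 FPKM in wounds and fell there by 1.11 on the log2 scale (adjusted p = 0.000404), and on the average by 0.85 (adjusted p = 1.68e-05). Gsta3 averaged 21.8, 10.7 and 9.57 FPKM in unwounded skin and 9.24, 3.02 and 3.00 FPKM in wounds, with no overlap at any site, and an average log2 difference of -1.55 ± 0.19 (adjusted p = 2.77e-05). Gsta4, Gsta1 and Gsta2 lie within 155.2 kilobases (chr9:78191966-78347192).

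Gsta1 and Gsta2 are near copies, which matters for values that rest on assigning fragments to transcripts. The longest open reading frames of their GENCODE transcripts differ at 14 of 669 bases (97.9% identical), with a run of 196 bases without a difference between them. Bases 449 to 508 of the frames hold 5 of the 14 differences and are shown with those bases in capitals.
Gsta1: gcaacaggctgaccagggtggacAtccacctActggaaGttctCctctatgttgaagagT
Gsta2: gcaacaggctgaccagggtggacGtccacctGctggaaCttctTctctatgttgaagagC
Of all 100-base stretches of the Gsta1 transcript, 81.8% occur unchanged in a transcript of another gene, mostly of Gm3776, whose frame differs from that of Gsta1 at 2 bases, and 35% of those of Gsta2 do. Gm3776 itself was listed at means of 3.40, 3.37 and 0.945 FPKM in unwounded abdomen, back and cheek and 3.42, 2.47 and 3.07 FPKM in wounds. Gm10639, which holds 24.4% of the Gsta2 stretches, was listed at means of 0.535, 0.24 and 0.28 FPKM in unwounded abdomen, back and cheek. In wounds its means were 0.468, 0.528 and 0.315 FPKM. The split of the fragments among these genes is an estimate of the quantification, and their separate values are less certain than that of Gsta4.

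**Figure D3:**
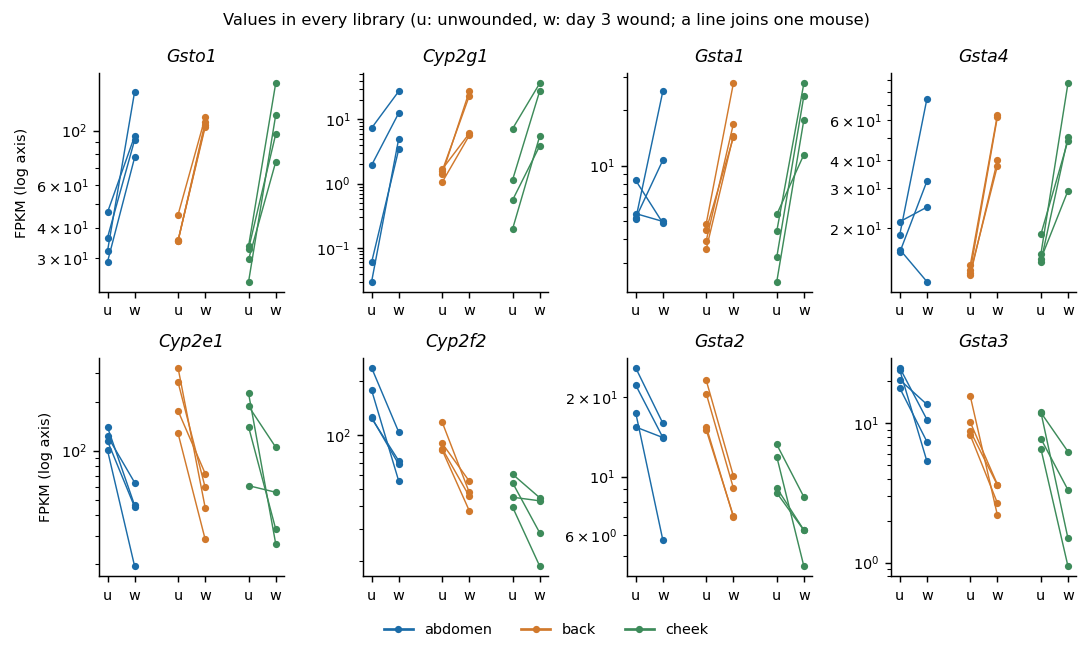
FPKM on a log axis of 4 members that rose (Gsto1, Cyp2g1, Gsta1, Gsta4) and 4 that fell (Cyp2e1, Cyp2f2, Gsta2, Gsta3) on the average over sites, in unwounded skin (u) and day 3 wounds (w) of abdomen (blue), back (orange) and cheek (green). Each line joins the 2 libraries of a mouse. All 12 lines go up for Gsto1 and Cyp2g1 and down for the 4 in the lower row, while 2 abdomen lines of Gsta1 and 1 of Gsta4 go down.

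The mu class lies in 1 cluster of 7 genes on chromosome 3 (chr3:107895854-108045179), and its tested members did not move together. Gstm1, Gstm2 and Gstm5 fell on the average over sites, by 0.78 (adjusted p = 6.14e-06), 0.32 (adjusted p = 0.000194) and 0.70 (adjusted p = 1.3e-06) on the log2 scale, each in all 12 mice. Gstm1, the most abundant, read 163, 173, 151 and 149.7 FPKM in unwounded back and 88.3, 81.4, 85.4 and 102 FPKM in back wounds. Gstm6, between them in the cluster, rose in all 12 mice, with 0.90 to 4.68 FPKM in unwounded back, 4.82 to 7.50 FPKM in back wounds and an average log2 difference of 1.08 ± 0.12 (adjusted p = 8.25e-06). Of the 100-base stretches of Gstm1, 7.73% occur in a transcript of another gene.

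Gstp1, the most abundant member, gave no call at any site. It was 309.9 to 443, 226 to 477 and 388 to 542 FPKM in unwounded abdomen, back and cheek and 324 to 553, 216 to 678 and 399 to 559 FPKM in wounds, and the average log2 difference was 0.12 ± 0.06 (adjusted p = 0.0799). Of its 100-base stretches 52.8% occur in a transcript of another gene, Gstp2 above all, and 63.5% of those of Gstp2 are shared, so the split between Gstp1 and Gstp2, which was lower in wounds, is uncertain. Their neighbour Gstp3, with 0% shared, rose in back (0.78 ± 0.14, adjusted p = 0.00089), with 8.15 to 11.7 FPKM in unwounded skin and 13.1 to 21.5 FPKM in wounds, and its log2 differences were 0.19 ± 0.14 and -0.15 ± 0.14 in abdomen and cheek. Gstz1, which acts in tyrosine breakdown, and Gstk1, the kappa class enzyme of mitochondria and peroxisomes, fell on the average, by 0.66 (adjusted p = 2.29e-05) and 0.31 (adjusted p = 6.3e-05). The 5 further members named after their values were seen, since the rule for names did not cover them, passed only on the average: Cyp2s1 rose (1.01 ± 0.16), and Cyp2j6, Cyp2w1, Gstp2 and Gstt3 fell (-0.48 ± 0.07, -0.77 ± 0.12, -0.57 ± 0.08 and -0.62 ± 0.08).

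Of the 4 tested glucuronosyltransferases 1 rose on the average over sites, and of the 4 tested sulfotransferases 1 rose and 2 fell. Over all genes 19.1% rose and 14.4% fell. Ugt1a7c was called in back (0.69 ± 0.10, adjusted p = 0.000226), from 10.1, 7.56, 9.57 and 9.12 FPKM to 16.8, 13.9, 13.5 and 15.6 FPKM, and not in abdomen (-0.05 ± 0.10) or cheek (0.53 ± 0.10, adjusted p = 0.00194). The Ugt1a genes share their last exons, and 68.8% of the 100-base stretches of Ugt1a7c, 57.2% of Ugt1a1 and 71.5% of Ugt1a6b occur in another gene, so levels within the cluster are uncertain. Ugt1a1 averaged 58.2, 29.9 and 31.7 FPKM in unwounded skin and 42.8, 31.6 and 25.6 FPKM in wounds, with an average of -0.20 ± 0.07 (adjusted p = 0.0198), and Ugt1a6b gave 0.13 ± 0.09.

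Sult2b1 was higher in the wound in all 12 mice. It read 60.4, 37.8, 38.5 and 39.4 FPKM in unwounded back and 73.6, 93.7, 93.4 and 95.4 FPKM in wounds, where it rose by 1.03 ± 0.16 on the log2 scale (adjusted p = 0.000333), and its average was 0.75 ± 0.09 (adjusted p = 2.09e-05). Sult1a1, a sulfotransferase of phenols, was 17.9 to 24.96, 16.2 to 22.3 and 10.8 to 24.1 FPKM in unwounded skin and 6.82 to 12.4, 7.03 to 12.04 and 6.41 to 17.3 FPKM in wounds, and it fell on the average by 0.97 (adjusted p = 1.79e-05), as did Sult5a1 by 0.54 (adjusted p = 0.000265). Sult1e1, the oestrogen sulfotransferase, named here after its values were seen, read 3.35, 5.44, 4.04 and 1.54 FPKM in unwounded abdomen and 0.43, 0.63, 0.44 and 0.24 FPKM in wounds. Its average log2 difference of -1.47 ± 0.32 (adjusted p = 0.00225) missed the threshold, with lower values in 10 of 12 wounds. Basal keratinocyte markers moved both ways beside the rise of Sult2b1. On the average Krt14 and Krt5 rose by 1.82 ± 0.12 and 0.37 ± 0.06, Krt15 and Col17a1 fell by 0.88 and 0.30, and Trp63 (-0.30 ± 0.06, adjusted p = 0.00135) and Itgb4 (0.20 ± 0.07, adjusted p = 0.0202) missed the threshold. Their summed level was 3800 to 4667 FPKM in unwounded back and 7026 to 9417 FPKM in its wounds, with Krt14 alone at 1153 to 1654 and 4286 to 6336 FPKM. The summed suprabasal keratinocyte markers averaged 5140, 5162 and 3468 FPKM in unwounded abdomen, back and cheek and 7255, 6860 and 6178 FPKM in wounds. The calls within that list are given above. The part of keratinocytes in the rise of Sult2b1 was not tested.

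Among the pumps of phase III, Abcc3 (MRP3), which exports glucuronides and other organic anions, was the member whose response was called as different between sites. It lies on chromosome 11 (chr11:94343295-94393017). Unwounded abdomen read 2.43, 2.74, 3.21 and 2.23 FPKM, unwounded back 2.13, 2.11, 1.72 and 1.98 FPKM and unwounded cheek 1.15, 1.16, 1.25 and 1.04 FPKM. Abdomen wounds read 3.31, 3.20, 3.67 and 2.64 FPKM, back wounds 5.33, 5.50, 5.25 and 5.32 FPKM and cheek wounds 4.85, 5.80, 6.39 and 6.16 FPKM. Abdomen was thus the highest site and cheek the lowest in unwounded skin, without overlap, while abdomen was the lowest in wounds, where back and cheek overlapped. The wound effect was 0.24 ± 0.09 (adjusted p = 0.0691) in abdomen, which missed the threshold, 1.24 ± 0.09 (adjusted p = 1.2e-06) in back and 1.93 ± 0.09 (adjusted p = 6.24e-08) in cheek, or 1.21-fold, 2.69-fold and 5.04-fold higher means.

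A moderated F test in limma of the differences between the 3 wound effects called 3 of 14423 genes (0.0208%) at 0.05, of which Abcc3 was the only member and had the smallest p of all genes (F = 83.3, adjusted p = 0.000638). Its response in cheek exceeded that in abdomen by 1.69 ± 0.13 on the log2 scale (adjusted p = 0.000154). The other pairs missed the threshold when adjusted over all genes, back over abdomen at 1.00 ± 0.13 (adjusted p = 0.0505) and cheek over back at 0.69 ± 0.13 (adjusted p = 0.185). Abcc3 remained called by the F test whichever mouse was left out (adjusted p 0.00137 to 0.00746), and without abdomen mouse 1 the number of members called was 2.

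The other tested Abcc genes, not all of which encode pumps, were lower or gave no call. Abcc9 (SUR2), the regulatory subunit of potassium channels that sense ATP, read 10.5, 12.9, 8.45 and 8.70 FPKM in unwounded back and 5.14, 4.14, 3.77 and 3.12 FPKM in wounds and fell there by 1.23 (adjusted p = 3.62e-05), and on the average by 0.79 (adjusted p = 4.82e-06). The mural cell marker Kcnj8, which encodes its channel partner, also fell on the average, by 0.64 (adjusted p = 4e-05). The other markers of the mural list did not move together: Myh11 gave -0.65 ± 0.11 (adjusted p = 0.000212) and Des -0.35 ± 0.26 (adjusted p = 0.271), while Rgs5, Pdgfrb and Notch3 rose on the average by 0.57 ± 0.08, 0.54 ± 0.08 and 0.28 ± 0.05. The sum of the list was 549.8 to 815.4 FPKM in unwounded back and 341.6 to 472.3 FPKM in its wounds, but most of it was Des, a gene that skeletal muscle also expresses (474 to 729 and 237 to 365 FPKM). The part of these cell types in the fall of Abcc9 was not tested. Abcc4 (MRP4), a pump for cyclic nucleotides and prostaglandins, read 13.5, 11.1, 16.4 and 15.4 FPKM in unwounded back and 7.87, 8.01, 7.96 and 8.34 FPKM in its wounds, with -0.76 ± 0.13 (adjusted p = 0.000653) there and -0.62 ± 0.08 (adjusted p = 1.86e-05) on the average. Abcc1 and Abcc5, a further pump for cyclic nucleotides, gave 0.06 ± 0.04 (adjusted p = 0.27) and -0.29 ± 0.06 (adjusted p = 0.00144).

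**Figure D4:**
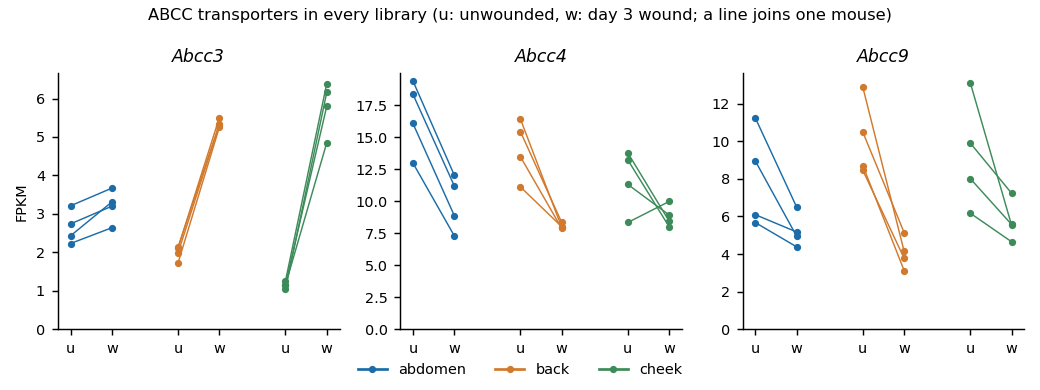
FPKM (linear axis from 0) of Abcc3, Abcc4 and Abcc9 in unwounded skin (u) and day 3 wounds (w) of abdomen (blue), back (orange) and cheek (green). Each line joins the 2 libraries of a mouse. Abcc3 lines rise least in abdomen (2.23 to 3.21 against 2.64 to 3.67 FPKM) and most in cheek, and Abcc9 lines fall in all 12 mice.

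Unwounded skin was compared between sites in limma over its 12 libraries, with a threshold of 0.05 adjusted over 13956 genes, 55 of them members. All 10 members called between back and abdomen were lower in back (2.67% of all genes were called, 2.14% lower and 0.53% higher). Among the 10 was Cyp2b9, which passed the filter of 0.5 FPKM mainly through its abdomen values, so its call is no support for a difference. All 8 called between cheek and abdomen were lower in cheek (2.57% of all genes, 1.23% lower and 1.33% higher). Between cheek and back 2 members were called, both higher in cheek (1.05% of all genes were called, 0.559% higher and 0.494% lower). Abdomen had the highest mean of the 3 sites for 38 of the 55, whether called or not. The same count was not made over all genes, so it cannot be read as particular to the members. The median log2 difference of the members was -0.31 for back and -0.22 for cheek, each set against abdomen, and of all genes -0.12 and 0.03. Scaling the libraries by the median ratio moved the median of all genes by 0.11 (back against abdomen) and by 0.14 (cheek against back). After it, 6 members were called between back and abdomen, all lower in back, and 5 between cheek and back, of which 2 were higher in cheek.

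These counts depended on single mice. For back against abdomen they were 6, 2 and 2 without abdomen mouse 1, 2 and 3 and 6, 3 and 6 without back mouse 1, 3 and 4. For cheek against abdomen they were 5, 3 and 2 without abdomen mouse 1, 2 and 3, and 4, 2 and 3 without cheek mouse 1, 2 and 4. For cheek against back the count was 0 without back mouse 2 or 3, 1 without abdomen mouse 1, back mouse 4, cheek mouse 3 or cheek mouse 4, and 4 without abdomen mouse 3. Abdomen mouse 2 and cheek mouse 4 are those whose unwounded libraries stood apart in muscle and hair content. Cyp1a1 and Cyp2j12 (back against abdomen) and Cyp2f2 and Abcc3 (cheek against abdomen) kept their calls without any of the mice.

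Cyp1a1 and Cyp2j12 were lowest in back. Cyp1a1 read 25.1, 30.5, 28.8 and 20.5 FPKM in abdomen, 12.9, 10.5, 11.6 and 12.7 FPKM in back and 19.2, 18.4, 29.3 and 24.6 FPKM in cheek, so that every back library lay below every other. The log2 difference was -1.09 ± 0.16 (adjusted p = 0.00522) for back against abdomen and 0.89 ± 0.16 (adjusted p = 0.0183) for cheek against back. Cyp2j12 read 29.6, 41.6, 36.9 and 24.9 FPKM in abdomen, 15.8, 10.9, 9.87 and 12.1 FPKM in back and 21.6, 21.3, 38.96 and 25.1 FPKM in cheek, with log2 differences of -1.41 ± 0.21 (adjusted p = 0.00644) for back against abdomen and 1.08 ± 0.21 (adjusted p = 0.0327) for cheek against back. For Cyp1b1, the other Cyp1 gene measured, the log2 difference of back from abdomen was -0.47 ± 0.13 (adjusted p = 0.079).

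Several Cyp2b genes, Gsta3 and Ugt1a1 were highest in abdomen. Cyp2b23 read 52.1, 36.7, 76.8 and 31.3 FPKM in abdomen, 4.99, 17.9, 7.83 and 14.8 FPKM in back and 6.25, 7.05, 21.4 and 9.72 FPKM in cheek, 4.33-fold and 4.44-fold lower on the means, with log2 differences of -2.14 ± 0.47 (adjusted p = 0.0431) and -2.18 ± 0.47 (adjusted p = 0.0421). Cyp2b10, known as the gene induced by phenobarbital in liver, and Cyp2b19, a keratinocyte enzyme that epoxidises arachidonic acid, were lower in both other sites, with -0.76 ± 0.15 and -0.89 ± 0.18 for back and -0.70 ± 0.15 and -0.92 ± 0.18 for cheek. Cyp2b9 was at most 0.89 FPKM. It read 0.52, 0.89, 0.61 and 0.36 FPKM in abdomen, 0, 0.24, 0 and 0.04 FPKM in back and 0.10, 0.29, 0.54 and 0.26 FPKM in cheek. Its test thus rested mainly on the site where it was high. Gsta3 differed by -1.03 ± 0.22 (adjusted p = 0.0307) and -1.18 ± 0.22 (adjusted p = 0.0195) and Ugt1a1 by -0.94 ± 0.19 (adjusted p = 0.0203) and -0.88 ± 0.19 (adjusted p = 0.0313). The summed sebaceous markers were 1914 to 2723 FPKM in unwounded abdomen, 1135 to 1682 in back and 1445 to 2258 in cheek. Other lists differed too. Basal keratinocyte markers summed to 4467 to 5924, 3800 to 4667 and 3664 to 4709 FPKM in abdomen, back and cheek. Skeletal muscle markers, lower in abdomen on the mean, summed to 374.9 to 11400, 10990 to 17530 and 8578 to 16800 FPKM. The part of any of these tissues in these differences was not tested.

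Cyp2f2 and Abcc3 were also lower in cheek than in abdomen. Cyp2f2 was 165 ± 53.03 FPKM (SD, n = 4) in abdomen, 93.4 ± 16.5 FPKM in back and 49.7 ± 9.24 FPKM in cheek, with -1.69 ± 0.21 (adjusted p = 0.00141) for cheek against abdomen. For Abcc3 that difference was -0.93 ± 0.13 (adjusted p = 0.00388). Gstp3, Ugt1a7c and Gsta2 were the remaining calls, the first pair lower in back (-0.85 ± 0.20 and -0.69 ± 0.13) and Gsta2 lower in cheek (-0.88 ± 0.19) than in abdomen.

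**Figure D5:**
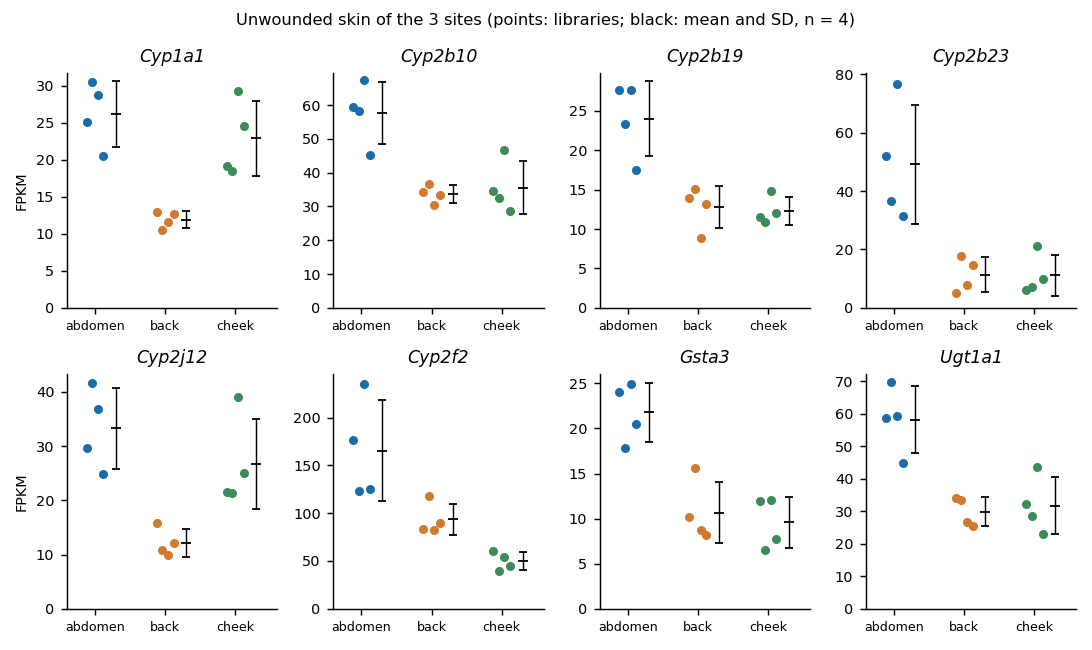
FPKM (linear axes from 0) of 8 members called between sites in unwounded abdomen (blue), back (orange) and cheek (green). Points are the 4 libraries and black marks the mean and SD. The 4 back points of Cyp1a1 and Cyp2j12 lie below all others, and Cyp2f2 steps down from abdomen to back to cheek.

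Wounds were compared between sites in the same way over the 12 wound libraries and 14023 genes, 55 of them members. Cheek wounds differed from abdomen wounds in 11 members, 1 higher and 10 lower (10.8% of all genes were called, 7.52% higher and 3.32% lower). The higher gene was Abcc3 (0.77 ± 0.10, adjusted p = 0.00264). The lower genes were led by Cyp2b23 (-2.53 ± 0.48, adjusted p = 0.0143), Gsta3 (-1.65 ± 0.44, adjusted p = 0.0379), Cyp2f2 (-1.18 ± 0.27, adjusted p = 0.0236), Gstp3 (-0.80 ± 0.15, adjusted p = 0.0111) and Cyp2j8 (-0.77 ± 0.21, adjusted p = 0.0374). Cyp2b23, which was already lower in unwounded cheek, averaged 18.6 FPKM in abdomen wounds and read 3.42, 1.04, 1.74 and 5.53 FPKM in cheek wounds. Abcc3, Cyp2b10, Cyp2b23, Gstp3 and Ugt1a1 kept their calls whichever mouse was left out, and the count was 5 without abdomen mouse 3, 7 without back mouse 2 or cheek mouse 2 and 6 without cheek mouse 3 or 4.

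Back wounds differed from abdomen wounds in 3 members (1.27% of all genes were called, 0.506% higher and 0.763% lower), Abcc3 higher (0.67 ± 0.10, adjusted p = 0.0169) and Gstz1 (-0.64 ± 0.14, adjusted p = 0.045) and Ugt1a1 (-0.43 ± 0.09, adjusted p = 0.0387) lower. The count was 0 without abdomen mouse 2 or back mouse 1, 2 or 3 and 1 without abdomen mouse 3, back mouse 4 or cheek mouse 2, and none of the 3 calls was kept throughout. Cheek and back wounds differed in Gstm6 alone (-0.58 ± 0.13, adjusted p = 0.0443, against 2.5% of all genes, 1.9% higher and 0.599% lower), which read 7.50, 4.82, 6.45 and 6.17 FPKM in back and 4.49, 4.13, 4.01 and 3.29 FPKM in cheek wounds. That call was made only in the full set and without abdomen mouse 1, 2 or 3 or back mouse 2, and without abdomen mouse 3 the count was 3.

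Genes that regulate or complement these enzymes were described from 4 lists of 73 symbols, of which 65 were tested for wounding. On the average over sites 8 rose and 25 fell at 0.001, where 33.4% of all genes were called (19.1% higher and 14.4% lower). Of 9 tested regulators 2 rose and 2 fell. Ahr itself averaged 11.8 FPKM in unwounded skin and 9.97 FPKM in wounds (-0.23 ± 0.07, adjusted p = 0.00949). Nfe2l2, which encodes NRF2, rose (0.44 ± 0.06, adjusted p = 2.41e-05), and the lipid and hormone receptors Ppara and Esr1 fell by 0.91 (adjusted p = 1.92e-06) and 0.81 (adjusted p = 9.12e-06).

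Of 22 tested phase I partners 4 rose and 12 fell, where 19.1% of all genes rose and 14.4% fell. The reductases Akr1b8 and Cbr3 rose by 1.92 ± 0.09 (adjusted p = 7.34e-09) and 0.87 ± 0.05 (adjusted p = 4.13e-08) in all 12 mice, the flavin monooxygenase Fmo2 fell by 0.81 (adjusted p = 1.49e-06), and Por, the electron donor of every microsomal P450, gave -0.10 ± 0.05 (adjusted p = 0.0792). The NRF2 target Nqo1 gave 0.13 ± 0.09 (adjusted p = 0.209). Of 22 phase II partners 1 rose and 5 fell, against 33.4% of all genes called in either direction, so the total did not exceed the background. Those that fell included the membrane-bound transferases Mgst1 (-0.56 ± 0.05, adjusted p = 2.29e-06) and Mgst3 (-0.62 ± 0.06, adjusted p = 4.01e-06) and Ugp2, which makes UDP-glucose (-0.79 ± 0.09, adjusted p = 9.8e-06). Gclc, of glutathione synthesis, gave -0.22 ± 0.10 (adjusted p = 0.0676). Of 12 further transporters 1 rose and 6 fell, led by the organic cation and carnitine carriers Slc22a3 (-0.99 ± 0.12), Slc22a4 (-0.61 ± 0.07) and Slc22a5 (-0.60 ± 0.07).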

How the data were processed

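RNA of 24 libraries (12 mice, wound and adjacent unwounded skin of each) was sequenced by the authors, who deposited FPKM values for 18368 genes. Per the submitters' processing notes, HISAT2, Bowtie2 (2.2.5), RSEM (1.2.12) and build mm10 were used, and DESeq2 for the authors' own comparisons, whose log2 fold changes and adjusted p-values were deposited and not used here. Members and lists were chosen with earlier results of these data known. Values were analysed as log2(FPKM + 0.5), for genes with 0.5 FPKM or more in 4 or more of a fit's libraries, in limma 3.58.1 (trend and robust, statmod 1.5.0, R 4.3.3), with Benjamini-Hochberg adjustment over all genes tested. Wound effects came from 1 model with a term for each of 12 mice and were called at 0.001. Their mean over sites, called at the same threshold, was added after the data were seen. Sites were compared in the 12 libraries of 1 state, and the moderated F test in the wound model, both at 0.05. The procedure was tested on simulated data.

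Both libraries of a mouse are paired by the labels, and their deviations from the group means correlated at 0.322, 0.348 and 0.281 on average in abdomen, back and cheek (lowest single pair -0.0299), against -0.108, -0.116 and -0.0958 for libraries of different mice. Deviations from a group mean sum to 0 over its 4 libraries. The values for different mice therefore largely follow from the others and are no separate evidence. No library pair held identical values (0 pairs). FPKM gives no depth, so the precision of a value can be read only from the spread of 4 libraries. Named members were the 3 most abundant of each family, the 8 largest called rises and falls of each wound comparison, the 6 largest called differences of each site pair, those called by the F test, and a set named always. From each pathway list the 3 genes with the smallest p were named, with Ahr, Nfe2l2, Por, Nqo1, Gclc and Mgst1. The pathway lists held regulators, phase I partners, phase II partners and transport partners, and the marker lists the cell types given with the results. Stretches of 100 bases of the GENCODE M21 transcripts were compared between genes to find shared sequence. Alternatives were pseudocounts of 1 and 0.1 FPKM, no filter, median-ratio scaling, other terms for mice, a threshold of 0.05 for wounds, all 24 libraries as 6 groups for sites, and leaving out each mouse.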

Additional observations from a re-analysis of the deposited data

Results flagged for a closer look

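The response of Abcc3 to wounding differed between sites by the moderated F test in limma (adjusted p = 0.000638), smallest in abdomen and largest in cheek.

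In 17 of 230 groups of 4 libraries examined, 1 library lay farther from the others than Dixon's 95% limit allows, where chance gives about 1 in 20. In cheek, mouse 3 was low in Gstp1 in both states, with 387.56 FPKM in unwounded skin (next 534.4) and 399 FPKM in the wound (next 540.1). The same mouse had 8.48 FPKM of Cyp1b1 in unwounded cheek (next 11.91) and 7.19 FPKM of Cyp2g1 (next 1.16). Back mouse 1 was high in unwounded skin, with 45.17 FPKM of Gsto1 (next 35.46), 60.41 FPKM of Sult2b1 (next 39.37) and 1.05 FPKM of Cyp3a59 (next 0.45), and low in its wound for Sult2b1, with 73.58 FPKM (next 93.37). Abdomen mouse 3 was high, with 8.32 FPKM of Gsta1 (next 5.51) and 35.66 FPKM of Sult5a1 (next 21) in unwounded skin and 42.95 FPKM of Ugt1a6b (next 26.8) in the wound. Cheek wounds had single high values of Cyp3a13 (7.5 FPKM in mouse 2, next 2.04), Cyp3a59 (0.6 FPKM in mouse 1, next 0.23) and Sult1a1 (17.26 FPKM in mouse 1, next 7.99). The remaining single values were Cyp2b10 at 47.76 FPKM in the wound of abdomen mouse 4 (next 62.88), Cyp2j8 at 4.24 FPKM in the wound of back mouse 2 (next 3.72) and Abcc5 at 7.03 FPKM in unwounded cheek of mouse 4 (next 9.33), the library with high hair keratins.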

How the results depend on the processing

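No named call reversed under any alternative. Of 484 values of named called members under other settings, 435 kept direction and side of the threshold and 49 lost the call. Among the 435 were 45 values from the looser threshold of 0.05 for wounds. A looser threshold cannot lose a call already made at a stricter one, so these 45 are no evidence of stability. Of 968 values with a mouse left out, 764 kept direction and side of the threshold and 204 lost the call. At a threshold of 0.05, 30 members were called in wounds of abdomen, 30 in back, 30 in cheek and 47 on the average. Median-ratio scaling gave 6 members between unwounded back and abdomen, 5 between unwounded cheek and back and 3 between cheek and back wounds, and without the filter the last count was 0. With all 24 libraries as 6 groups, 4 members were called between unwounded cheek and back, 1 between back and abdomen wounds and 0 between cheek and back wounds. The causes were not tested.

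Without the term for mice (no pairing), 2, 13 and 4 members were called in wounds of abdomen, back and cheek, 27 on the average and 1 by the F test. Mouse numbers do not pair animals across sites, and same-numbered libraries correlated at -0.174 to 0.0179 on average. With the number as a block, members called were 5 (unwounded back against abdomen), 6 (unwounded cheek against abdomen), 1 (unwounded cheek against back), 0 (back against abdomen wounds), 6 (cheek against abdomen wounds) and 0 (cheek against back wounds).

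With each mouse left out, the counts ranged from 1 to 6 in wounds of abdomen, 3 to 17 in back, 2 to 8 in cheek, 28 to 31 on the average and 1 to 2 by the F test. Between unwounded sites they were 2 to 12 (back against abdomen), 2 to 11 (cheek against abdomen) and 0 to 4 (cheek against back), and between wounds 0 to 4, 5 to 16 and 0 to 3 for the same pairs. Members under 0.5 FPKM could not be compared, and no depth is known that would bound them.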
